A study of Zea mays with 17 samples.

Results

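The genes described are 44 nuclear maize genes whose transcripts were low in the other somatic cells of 1.5 mm anthers and abundant in the same cells at 2.0 mm, while the tapetum stayed low. They were chosen from 44146 nuclear gene rows, in a table of 46430 rows, by their CPM, a gene's count divided by the library's total count and scaled to a library of 1000000 counts. Each member held at least 100 CPM in both libraries of other somatic cells at 2.0 mm, at most 20 CPM in both at 1.5 mm, and under 20 CPM in both tapetum libraries at 2.0 mm. These 6 libraries therefore describe the members and test nothing. The other 11 libraries played no part in the choice.

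RNA came from anthers of the maize (Zea mays) inbred W23 bz2, labelled wild type, which were sorted by length into 1.5 mm and 2.0 mm. At each length, meiocytes (ME), tapetum (TAP) and other somatic cells (OSC) were cut from tissue by laser capture microdissection, and fixed anthers (FA) were taken whole. Every group had 2 libraries except FA at 1.5 mm, which had 3, so 17 libraries were made in 8 groups. Libraries were made with CEL-seq2, which primes on the poly(A) tail and counts the 3′ ends of transcripts. The labels do not say which wall layers the OSC samples held, nor whether replicates came from separate plants, so p-values measure only the spread between these libraries.

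The maize anther lobe is built of concentric layers. The tapetum lies next to the meiocytes and feeds them, and outside it lie the middle layer, the endothecium and the epidermis, with connective and vascular tissue joining the lobes. The outer layers stretch as the anther lengthens, the epidermis forms a cuticle and the endothecium later thickens its walls for anther opening. The files pair none of the 44 identifiers with a gene name, and 0 of the 44146 nuclear rows matched the RefSeq gene table for maize, so no function is given for any member. For the same reason the defining markers of the captured cell types were not checked.

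Total counts ran from 280760 in the second OSC library at 1.5 mm to 4428287 in the first FA library at 2.0 mm. A count of 0 allows up to 3 counts, which over both libraries of a group is 2.74 CPM in OSC at 1.5 mm, 0.510 CPM in TAP at 2.0 mm and 1.96 CPM in ME at 2.0 mm. Such limits, and the intervals given with ratios and shares, cover counting error only. CPM are compared between libraries for one gene and are not divided by gene length, since CEL-seq2 counts transcript ends, and the order of genes by CPM serves only to choose which are named, not to compare how much of each transcript was made. The plot of levels by library shows all 44 members.

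**Figure D1:**
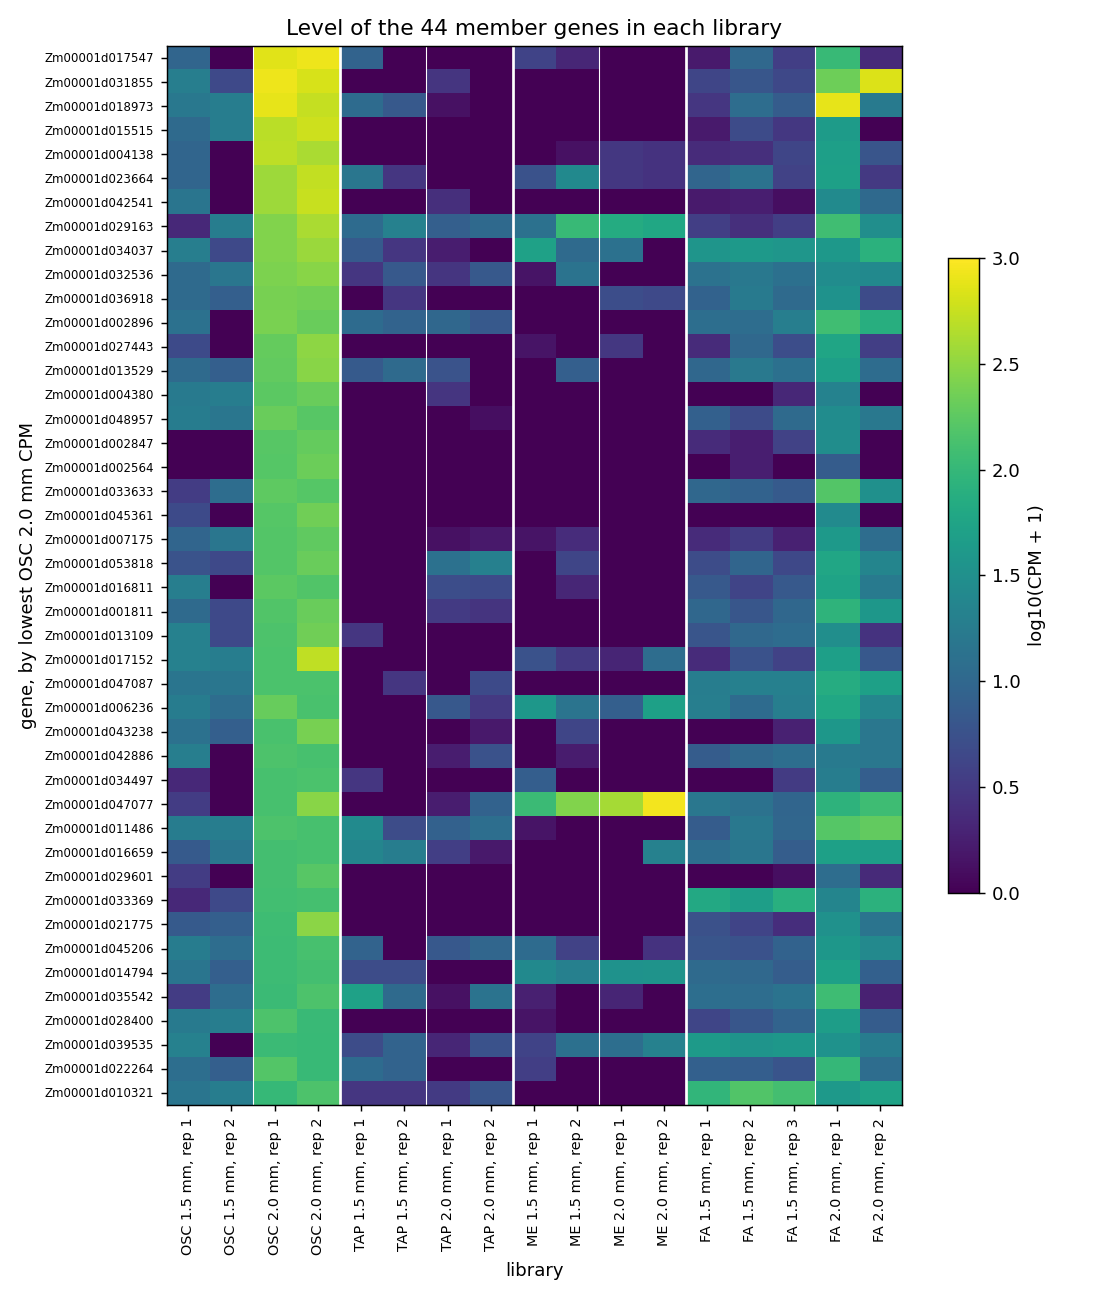
Level of each of the 44 member genes (rows, ordered by their lower CPM in OSC at 2.0 mm) in the 17 libraries (columns, by cell type and anther length), as log10(CPM + 1) from dark (0) to yellow (3). The 2 OSC columns at 2.0 mm are bright for every gene because the genes were chosen so. Most TAP and ME cells are dark, with 1 ME row far brighter than the rest, and the 2 FA columns at 2.0 mm differ from each other.

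Few genes met the rule. Of 1621 nuclear genes with at least 100 CPM in both OSC libraries at 2.0 mm, 57 had at most 20 CPM in both OSC libraries at 1.5 mm. The limit on tapetum removed 13 of these, 8 of which held at least 100 CPM in both TAP libraries at 2.0 mm. The reverse rule, with at least 100 CPM in OSC at 1.5 mm, at most 20 CPM in OSC at 2.0 mm and under 20 CPM in TAP at 1.5 mm, was met by 5 genes. The same rule with tapetum and other somatic cells exchanged was met by 13 genes. Without the first OSC library at 2.0 mm, 71 genes would meet the rule in place of 44.

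The members together took 1.09 ± 0.116% of all counts in OSC at 2.0 mm (mean ± SD, n = 2), against 0.0390 ± 0.00977% in OSC at 1.5 mm (n = 2). With the counts of both libraries pooled, the summed level was 26.2 times higher at 2.0 mm. Single members were between 7.33 and 152 times higher in pooled counts, apart from 2 members with 0 counts at 1.5 mm. The median fold was 25.4, with those 2 genes at their lower bound. The highest ratio, of 152 in Zm00001d034497 (named after its values were seen), rests on 1 count at 1.5 mm and has an exact 95% counting interval from 27.2 to 6012, so its size is poorly known.

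Of the 44 members, 2, named after their values were seen, had 0 counts in both OSC libraries at 1.5 mm. Zm00001d002847 then held 165 and 197 CPM at 2.0 mm, at least 67.7-fold higher, and Zm00001d002564 held 163 and 209 CPM, at least 70.3-fold higher, with the limit of 3 counts taken over both libraries. Another 6 members held 1 to 3 counts over both 1.5 mm libraries. The remaining members had low but measurable levels, up to 16 counts in the first OSC library and up to 5 in the second, where 15 members had 0 counts. At 2.0 mm no member had fewer than 154 counts in an OSC library.

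The first members by the lower of their OSC levels at 2.0 mm were Zm00001d017547 and Zm00001d031855. Zm00001d017547 had 8.58 and 0 CPM in OSC at 1.5 mm and 724 and 829 CPM at 2.0 mm. Zm00001d031855 had 18.4 and 3.56 CPM at 1.5 mm and 828 and 663 CPM at 2.0 mm. Both OSC libraries at 2.0 mm were high for both genes, as the rule requires, and the replicates lay close together. Over all 44 members the OSC libraries at 2.0 mm differed by a median of 1.26-fold, near the 1.20-fold of all 1621 genes at this level. In 3 members they differed by more than 2-fold.

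The thresholds cut through a continuous range. At the minimum of 100 CPM, Zm00001d010321 lay just inside, with 102 and 145 CPM in OSC at 2.0 mm, and Zm00001d031796 just outside, with 204 and 99.8 CPM. At the maximum of 20 CPM in OSC at 1.5 mm, Zm00001d013109 lay inside with 19.6 and 3.56 CPM, and Zm00001d022032 outside with 13.5 and 21.4 CPM. At the tapetum limit, Zm00001d053818 lay inside with 12 and 19.2 CPM in TAP at 2.0 mm, and Zm00001d032725 outside with 19.6 and 22.9 CPM. The median length of the members was 1651.5 bases, with a range from 366 to 5569. It was 2111 bases for all nuclear genes at 100 CPM or more in OSC at 2.0 mm and 1263 bases for all nuclear genes.

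**Figure D2:**
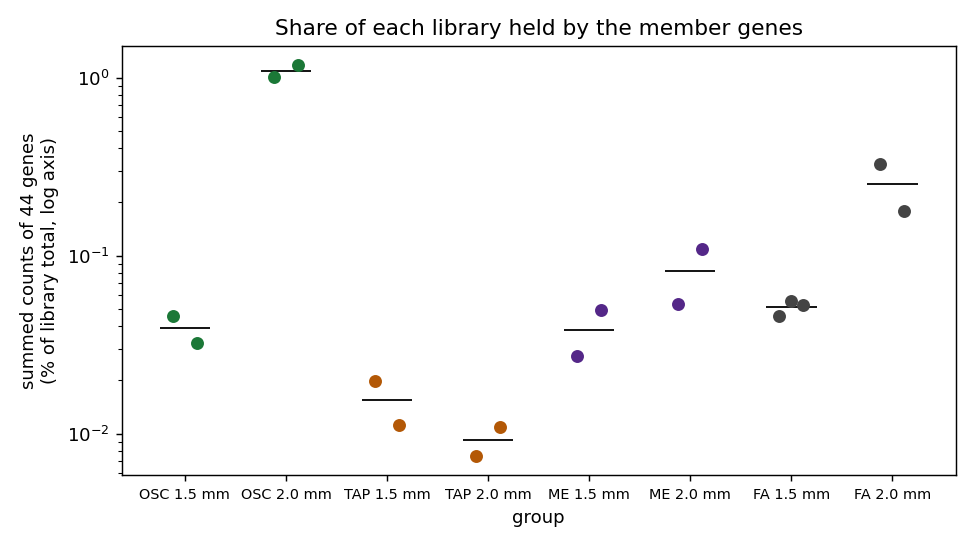
Summed counts of the 44 member genes as a percentage of each library's total (y axis, log scale) in the 8 groups (x axis). Points are libraries and bars are group means. Both OSC libraries at 2.0 mm lie near 1%, where the rule put them, and FA at 2.0 mm lies between 0.177% and 0.328%, above the 3 FA libraries at 1.5 mm.

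Whole fixed anthers contain the other somatic cells, and their libraries were not used by the rule, so they offer a separate reading of the change with length. The 44 members took 0.0456, 0.0556 and 0.0527% of counts in the 3 FA libraries at 1.5 mm. At 2.0 mm they took 0.328% in the first library (exact 95% interval 0.323 to 0.334%) and 0.177% in the second (0.172 to 0.183%). Both libraries at 2.0 mm were therefore above all 3 at 1.5 mm, but they differed from each other by 1.85-fold, more than the 1.22-fold between the most different FA libraries at 1.5 mm. In whole anthers, more cells of a type and more RNA per cell cannot be told apart.

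Gene by gene, 22 of the 44 members were called higher in FA at 2.0 mm than at 1.5 mm and 1 was called lower (edgeR quasi-likelihood test on the 5 FA libraries, Benjamini-Hochberg adjusted p-value under 0.05 over 16116 genes). Of all genes tested, 15.2% were called higher and 14.5% lower. The low-count filter passed 38 members. The median log2 fold change of those 38 was 2.91, and it was 0.01 over all genes tested. In the 22 genes that rose, the log2 fold change ran from 1.19 to 6.99 with a median of 3.24. All 22 had both libraries at 2.0 mm above all 3 at 1.5 mm. Members close to 0 in all 3 libraries at 1.5 mm could pass the filter only through both libraries at 2.0 mm. For such members the filter itself sets this order. Over all 44 members, tested or not, 26 had this order and 2 had the reverse, where 21.9% and 31.5% of nuclear genes at 1 CPM or more in FA did.

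The largest called rise in FA was that of Zm00001d031855, from 3.28, 5.43 and 3.49 CPM at 1.5 mm to 216 and 690 CPM at 2.0 mm. Its log2 fold change was 6.99 ± 0.66 (SE, edgeR adjusted p = 0.00197). The groups were far apart, although the libraries at 2.0 mm differed by about 3-fold between themselves. The gene next in size was Zm00001d043238, at 0, 0 and 0.872 CPM at 1.5 mm and 38.2 and 14.3 CPM at 2.0 mm. Its pooled ratio of 62.5 rests on 3 counts at 1.5 mm and has a 95% counting interval from 21.1 to 305, with an edgeR adjusted p-value of 0.000985, or 0.0647 when the captured libraries that the rule did not use shared the fit. Both libraries at 2.0 mm were higher than any at 1.5 mm for this gene too, which the low-count filter requires of a gene so low at 1.5 mm.

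One member went the other way in whole anthers. Zm00001d010321 had 92.4, 154 and 126 CPM in FA at 1.5 mm and 40.9 and 53.2 CPM at 2.0 mm, a log2 fold change of -1.25 ± 0.26 (SE, edgeR adjusted p = 0.00724). All 3 libraries at 1.5 mm were above both at 2.0 mm. It was not called when libraries of captured cells shared the fit, where the coefficient of biological variation was 57.3% over 11 libraries in place of 29.5%. In OSC the gene went from 13.5 and 17.8 CPM to 102 and 145 CPM, a direction the rule fixes.

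**Figure D3:**
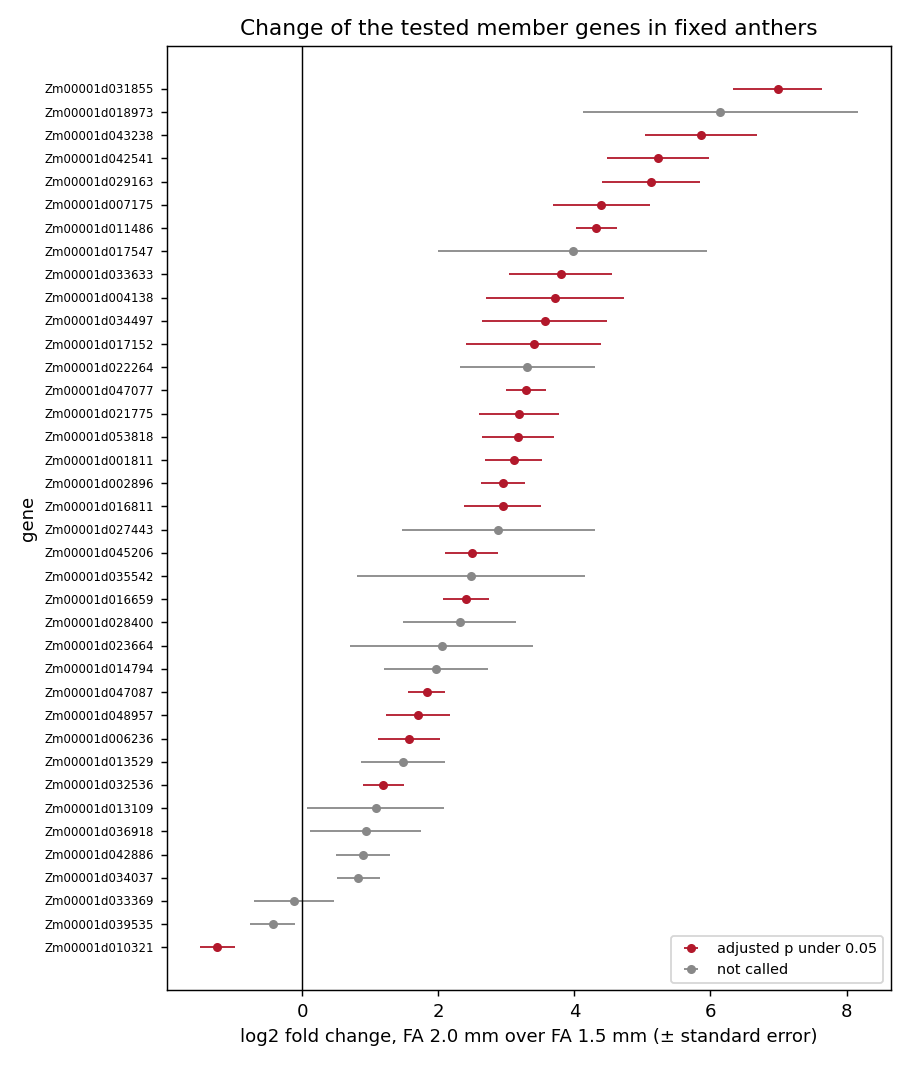
Log2 fold change from 1.5 mm to 2.0 mm in fixed anthers (x axis) with its standard error (bars) for the 38 member genes that passed the low-count filter (y axis). Red points are the 23 genes with an edgeR adjusted p-value under 0.05. All but 1 of the red points lie right of 0, between 1.19 and 6.99, and Zm00001d010321 lies left of it at -1.25.

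The 2 FA libraries at 2.0 mm lay apart in many of the members that were not called. Another 15 members passed the filter without being called, 13 of them with a positive log2 fold change, and in 9 of the 15 the first library at 2.0 mm was above all 3 at 1.5 mm while the second was not. The 6 members that did not pass held 6.55 to 42.9 CPM in the first library at 2.0 mm, at most 1.30 CPM in the second and at most 3.88 CPM in any library at 1.5 mm.

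Across all 44 members, 40 were above all 3 FA libraries at 1.5 mm in the first library at 2.0 mm, and 28 in the second. In the second, 8 members lay below all 3 libraries at 1.5 mm, and 6 of these 8 were above them in the first. The share of all nuclear genes with such an order of 1 library was not counted, so these numbers only describe the members. Of the 32 members with at least 10 counts in both FA libraries at 2.0 mm, 26 were higher in the first library, against 44% of 14046 nuclear genes. The median ratio of the first to the second was 2.48 in these members and 0.942 in all those genes. The ratio was over 2 for 18 of the 32 members, against 7.87% of all those genes and 12.7% of 1586 genes that were at 100 CPM or more in OSC at 2.0 mm. The first library was thus mostly the higher one for the members, while over all genes both libraries were close.

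The widest gap among those 32 members was in Zm00001d018973, at 781 CPM in 1 FA library of 2.0 mm anthers, the first, and 15.6 CPM in the other. Its OSC levels at 2.0 mm were 780 and 546 CPM, so it was as high in the first whole-anther library as in the captured cells. At 1.5 mm it held 1.97, 10.9 and 6.39 CPM in FA, and its log2 fold change of 6.14 ± 2.02 (SE, edgeR adjusted p = 0.115) was not called. Zm00001d004138 followed with 47.9 and 5.19 CPM, a ratio of 9.22. It was called higher than its 1.31, 1.55 and 3.20 CPM at 1.5 mm, with a log2 fold change of 3.71 ± 1.01 (SE, edgeR adjusted p = 0.0390), a call that was lost without the first (edgeR adjusted p = 0.139) or the second (edgeR adjusted p = 0.131) library at 1.5 mm.

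A few members had the opposite order. Zm00001d033369 had 21.9 and 83.5 CPM in the first and second of these libraries, and Zm00001d031855 had 216 and 690 CPM. Zm00001d031855 alone made up a large part of the summed level in the second library. Without that gene the members' summed level was 2.84 times higher in the first library than in the second, in place of 1.85 times.

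**Figure D4:**
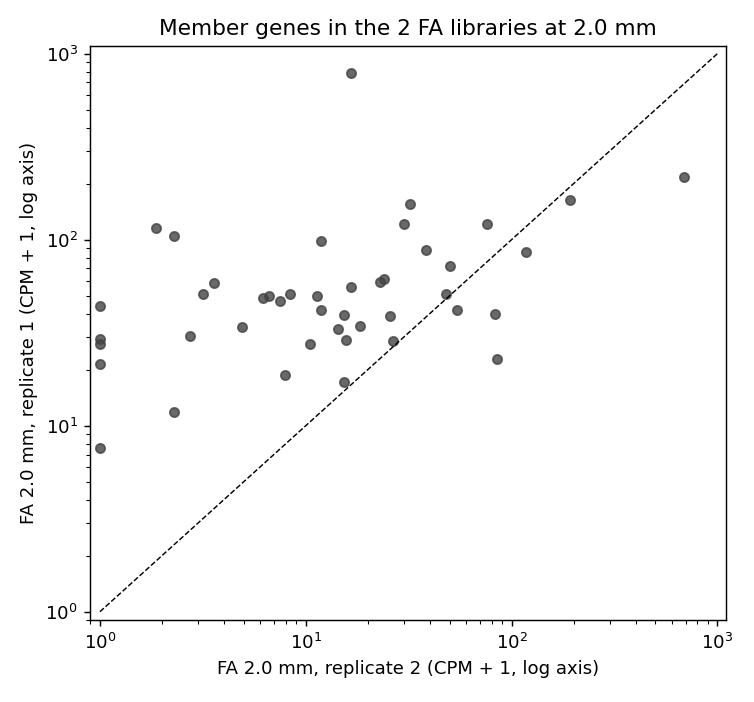
Level of the 44 member genes in the first (y axis) and second (x axis) FA library at 2.0 mm, as CPM + 1 on log axes, with the line of equal levels dashed. Each point is a gene. There are 38 genes above the line and 6 below it, and the 5 genes with 0 counts in the second library lie on the left edge.

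Set beside the captured cells, the level of a member in FA at 2.0 mm was a median of 17.2% of its OSC level at that length, with a range from 1.76% to 127%. The same median was 71.5% for all 1621 nuclear genes at 100 CPM or more in OSC at 2.0 mm. OSC levels enter the rule, and so does the limit on TAP at 2.0 mm, which the 1621 genes did not have to meet. These shares are therefore a description. The member above 100%, named after its values were seen, was Zm00001d011486, with 145 and 132 CPM in OSC and 161 and 191 CPM in FA at 2.0 mm.

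Some members were already present in whole anthers at 1.5 mm. Of the 44, 40 had at most 20 CPM in every FA library at 1.5 mm, and 4 were above 20 CPM in all 3. The highest was Zm00001d010321, given above, and the next was Zm00001d033369, with 62.9, 47.3 and 76.1 CPM. At the same length Zm00001d033369 held 1.23 and 3.56 CPM in OSC and 0 counts in both TAP and both ME libraries. No captured library at 1.5 mm came near its whole-anther level. In 5 members every FA library at 1.5 mm was above all 6 captured libraries of that length, among the 37 members at 1 CPM or more in FA at 1.5 mm, against 10.6% of 18976 nuclear genes. In FA at 2.0 mm the gene held 21.9 and 83.5 CPM, which overlaps the values at 1.5 mm.

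Meiocytes held few counts of most members. Of the 44, 18 had 0 counts in all 4 ME libraries and 30 had 0 counts in both ME libraries at 2.0 mm, where each library held a count for only 12 and 11 members. At that length the members took 0.0534 and 0.109% of counts in ME, and Zm00001d047077 was the largest part of both. Above 20 CPM in both ME libraries at 2.0 mm were 3 members. Shares of all nuclear genes at these ME levels were not counted, so the numbers describe the members only.

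At 2.0 mm, 25 of the 44 members were called lower in ME than in FA, and 1 was called higher (edgeR, 11 libraries that the rule did not use, adjusted over 16518 genes, 37 members tested). The corresponding shares of all genes tested were 25.6% and 9.35%. The median log2 difference of all genes tested was -0.88, so the members' differences are read against that shift. The lower group was at 0 counts for 23 of the 25. By their FA means these were at least 7.80 to 232-fold lower in ME, against the limit of 3 counts over both ME libraries. All but 1 of the 25, Zm00001d035542, had both ME libraries below both FA libraries. For the 23 at 0 counts in ME this order needs only a count in both FA libraries, so it adds nothing to the calls. Members at 0 counts in every ME and TAP library of this fit could pass its low-count filter only through FA, where they are high. Their calls are in part set by the filter, so the number called lower describes the members only. Captured meiocytes and whole fixed anthers differ in cell type and in how they were taken, and these cannot be told apart here. With the first or second ME library at 2.0 mm left out, 9 or 15 members were called lower, and without the first FA library at 2.0 mm 8 were.

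The called members with the largest difference were Zm00001d031855 and Zm00001d018973, both with 0 counts in ME at 2.0 mm. Zm00001d031855, at 216 and 690 CPM in FA, was at least 232-fold lower in ME by its FA mean (edgeR adjusted p = 0.00169). Zm00001d018973, at 781 and 15.6 CPM in FA, was at least 204-fold lower by its FA mean (edgeR adjusted p = 0.0127). That mean rests almost wholly on the first FA library, so the size of this difference is poorly known. Its call was lost when the first FA library or either ME library was left out. Both genes also had 0 counts in both ME libraries at 1.5 mm.

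Zm00001d047077 stood apart from the other members in meiocytes. It held 109 and 272 CPM in ME at 1.5 mm and 388 and 890 CPM at 2.0 mm, more than the 132 and 295 CPM of OSC at 2.0 mm in which it was selected. In FA it had 14.4, 12.4 and 8.43 CPM at 1.5 mm and 84.9 and 116 CPM at 2.0 mm. Every ME library was above every FA library of the same length. At 2.0 mm its log2 difference of ME over FA was 2.88 ± 0.61 (SE, edgeR adjusted p = 0.00846), a call that was lost without the first FA library. It rose in FA with length, with a log2 fold change of 3.29 ± 0.29 (SE, edgeR adjusted p = 7.87e-05).

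The member next highest in ME at 2.0 mm was Zm00001d029163, with 69.8 and 60.8 CPM. Its ME libraries at 1.5 mm held 12 and 103 CPM, so the lengths overlap. It was called higher in FA at 2.0 mm, from 2.62, 1.55 and 2.62 CPM to 121 and 29.0 CPM, with a log2 fold change of 5.13 ± 0.73 (SE, edgeR adjusted p = 0.00367).

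Between 1.5 mm and 2.0 mm in ME, 0 members were called higher and 0 lower by edgeR among the 37 tested. Of these 37, 12 had 0 counts in all 4 ME libraries and could not be called, which leaves 25 with a count in at least 1. Of all genes tested, 0.00605% were called higher and 0.521% lower. At an unadjusted edgeR p-value under 0.05, 3 of the 37 members were higher and 2 lower, where 2.09% and 14.2% of all genes tested were. DESeq2 called 1 member higher and 0 lower. The median log2 fold change of all genes here was -0.54 with TMM scaling factors, -0.09 with RLE factors and -0.22 with library totals. It was negative each time but varied in size, so the direction of small changes in ME can depend on the scaling. For Zm00001d047077 the log2 fold change was 1.36 ± 0.58 (SE, edgeR adjusted p = 0.273), although both libraries at 2.0 mm were above both at 1.5 mm.

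Whether the change with length differed between FA and ME was tested as an interaction, and edgeR called 0 members among the 37 tested. Of all genes tested, 0.896% were called with the more positive change in FA and 0.115% with the more negative. At an unadjusted edgeR p-value under 0.05, 12 of the 37 members had the more positive change in FA and 1 the more negative. Of all genes tested, 14.0% and 3.17% did. DESeq2 called 1 member. The test says little for the 12 tested members that had 0 counts in all 4 ME libraries. Other settings called up to 9 members, as without the low-count filter, where 1258 genes were called in all in place of 167.

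Tapetum was low at 2.0 mm by the rule, and it was also low at 1.5 mm, where the rule did not look. In TAP at 1.5 mm, 24 of the 44 members had 0 counts in both libraries and 41 had at most 20 CPM in both. The members took 0.0198 and 0.0112% of counts there and 0.00749 and 0.0109% in TAP at 2.0 mm. In all, 12 members had 0 counts in all 4 TAP libraries, and 8 had 0 counts in every TAP and ME library. How many of all nuclear genes were as low in TAP was not counted, so these numbers only describe the members. The TAP libraries at 1.5 mm held 495100 and 501897 counts, so 0 counts in both allow up to 3.01 CPM.

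The members with the highest means in TAP at 1.5 mm were Zm00001d035542 and Zm00001d016659. Zm00001d035542 had 50.5 and 9.96 CPM there, 0.376 and 13.0 CPM in TAP at 2.0 mm, and 109 and 143 CPM in OSC at 2.0 mm. In FA it went from 11.1, 10.9 and 12.8 CPM at 1.5 mm to 115 and 0.865 CPM at 2.0 mm, where the second library was below and the first above all others. Zm00001d016659 had 22.2 and 17.9 CPM in TAP at 1.5 mm and 2.63 and 0.619 CPM at 2.0 mm. In FA it rose from 11.1, 14.0 and 6.68 CPM to 49.9 and 47.1 CPM, with a log2 fold change of 2.41 ± 0.34 (SE, edgeR adjusted p = 0.000929). The call was lost when captured libraries shared the fit (edgeR adjusted p = 0.166 with 17 libraries and 0.307 with 11).

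Against FA at 1.5 mm, 3 of the 44 members were called lower in TAP and 0 higher (edgeR, 11 libraries, 37 members tested), where 6.6% and 3.6% of all genes were. At an unadjusted edgeR p-value under 0.05, 12 of the 37 members were lower and 1 was higher, where 18.0% and 10.0% of all genes were. DESeq2 called 4 members lower and 1 higher. The 3 members were Zm00001d010321, Zm00001d033369 and Zm00001d047077. Zm00001d010321 had 2.02 and 1.99 CPM in TAP, from 2 counts in all, and its pooled ratio of FA to TAP was 61.7 with a 95% counting interval from 17 to 510 (edgeR adjusted p = 0.00654). Zm00001d033369 had 0 counts in TAP and was at least 20.7-fold lower (edgeR adjusted p = 0.0208), and Zm00001d047077, also at 0 counts, was at least 3.91-fold lower (edgeR adjusted p = 0.0317). Zm00001d010321 and Zm00001d033369 also had 0 counts in ME at either length and could pass the low-count filter only through FA. Leaving out any 1 of the 5 libraries left 0 or 1 member called, so these calls rest on all of them.

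Read over all groups, 32 of the 44 members had at most 20 CPM in every ME library, every TAP library at 1.5 mm and every FA library at 1.5 mm. The other 12 passed 20 CPM in at least 1 of those 9 libraries. By group, members above 20 CPM in every library numbered 1 in ME at 1.5 mm, 3 in ME at 2.0 mm, 0 in TAP at 1.5 mm, 4 in FA at 1.5 mm and 16 in FA at 2.0 mm. No such shares were counted over all nuclear genes, so these numbers describe the members and do not set them apart.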

How the data were processed

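The deposited table holds whole-number read counts for each gene row in 17 libraries, not normalized by the authors as far as the values show, and each row's length in bases. The submitters' processing notes name fastp, Trim Galore and HISAT2, while the genome build, annotation, counting tool, strand use and collapsing of molecular identifiers are not given in the sources used here. Genes that overlap or share reads with near-identical copies are therefore uncertain, and no coordinates or sequences are printed. Libraries were grouped by their titles. The members, comparisons and naming rule were chosen with earlier results of these data known.

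Counts were tested with edgeR 4.0.16 (R 4.3.3): quasi-likelihood F-test, robust dispersions, TMM factors, and filterByExpr by group (minimum count 10, minimum total 15). Calls have a Benjamini-Hochberg adjusted p-value under 0.05 over all genes of a fit. Standard errors were derived from the F statistic and left out where a group was at 0. Alternatives were RLE factors, library totals, no filter, DESeq2 1.42.0, other sets of libraries, a replicate block, each library left out, and other thresholds. Genes named are the first by OSC level, those at a threshold, the largest called changes, the highest in ME, TAP and FA, and the widest FA replicate ratios, plus those said to be picked later. The scripts were tested on simulated data.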

Additional observations from a re-analysis of the deposited data

Results flagged for a closer look

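The following members had values that differed in opposite directions between 1.5 mm and 2.0 mm in 2 kinds of sample, with every 2.0 mm library beyond every 1.5 mm library in both, although some of these orders rest on single counts. The differences between these changes in mean CPM were not tested, except between FA and ME, where the interaction test called none of them. Zm00001d032536 rose by 13.5 CPM in FA and changed by -6.65 CPM in ME, a difference of 20.1 CPM. Its order in ME rests on 1 count in the first library at 1.5 mm against 0 counts at 2.0 mm, where 0 counts allow up to 1.96 CPM, and the ME change was not called (edgeR adjusted p = 0.195). For Zm00001d045206 the changes were 25.4 CPM in FA and -5.69 CPM in ME, a difference of 31.1 CPM, and the ME change was not called (edgeR adjusted p = 0.301). Zm00001d029163 changed by 72.6 CPM in FA and -6.64 CPM in TAP, which differ by 79.3 CPM. Its order in TAP rests on 10.1 CPM, from 5 counts, in the first library at 1.5 mm against 9.60 CPM in the second at 2.0 mm. That order is therefore not resolved. Zm00001d016659 changed by 37.9 CPM in FA and -18.4 CPM in TAP, which differ by 56.4 CPM. In Zm00001d010321 the change was -77.1 CPM in FA and 1.75 CPM in TAP, a difference of -78.9 CPM, and against the 108 CPM of OSC the difference was -185 CPM. The TAP value rests on 1 count in each library at 1.5 mm and is below the 3.01 CPM that 0 counts would allow there, so its direction is not resolved. Zm00001d039535 changed by -13.3 CPM in FA and 97.7 CPM in OSC, a difference of -111 CPM. Its change in FA was not called (log2 fold change -0.433 ± 0.327, SE, edgeR adjusted p = 0.354). The rule fixes the rise in OSC and keeps TAP under 20 CPM at 2.0 mm, so those directions are in part set by the choice of members.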

How the results depend on the processing

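With RLE factors or library totals, no called member changed its direction in any comparison, and of the 22 members that rose in FA, 22 and 21 were called again. Of all genes called in FA, 51.1% were called higher with TMM and 40.7% with library totals, and of all genes called in the interaction, 88.6% had the more positive change in FA with TMM and 74.0% with RLE. The count of members higher in FA was 14 with all 17 libraries in 1 fit and 8 with the 11 libraries the rule did not use. In these fits 846 and 657 genes were called in all, in place of 4782 with the 5 FA libraries. The captured libraries, whose spread is wider (coefficient of variation 57.3% over the 11 libraries, 29.5% over the 5 FA libraries), share both fits. Leaving out 1 library gave 15 to 39, and 15 of the 22 were called in every such fit. Members lower in ME than in FA numbered 8 to 22 with 1 library left out. Members higher in ME at 2.0 mm numbered 1 without a filter, 1 with DESeq2, and 0 to 1 with 1 library left out. In the interaction 9 members were called without a filter, 1 with DESeq2, 4 with all 17 libraries and 0 to 3 with 1 library left out. Members lower in TAP numbered 6 without a filter, 6 with all 17 libraries, 11 with only the libraries compared, and 0 to 1 with 1 library left out. The number of all genes called moved with these settings too. For ME with length it was 1182 without a filter and 546 with DESeq2, in place of 87. In the interaction it was 1258 without a filter, 974 with DESeq2 and 584 with all 17 libraries, in place of 167. For TAP against FA it was 2890 without a filter, 2062 with all 17 libraries and 6055 with only the libraries compared, in place of 1685. The cause of these shifts was not tested.

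The replicate numbers are not stated to mark a shared plant or day, and same-numbered deviations did not go together (r = -0.109 across genes between the FA groups, -0.216 between the ME groups). With the replicate block, 20 members were higher in FA, 10 lower in ME than in FA and 0 lower in TAP.

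With a minimum of 50 CPM in OSC at 2.0 mm the rule gave 140 genes, and with 200 CPM 12. A maximum in OSC at 1.5 mm of 10 CPM gave 16 and of 40 CPM 86, and leaving out 1 library 45 to 71. With the first 100 genes at 50 CPM, or the genes at 200 CPM, 41 and 6 were higher in FA, 55 and 6 lower in ME than in FA, and 10 and 0 lower in TAP. Their share of FA counts at 2.0 mm was 0.398% and 0.127%, against 0.253 ± 0.107% (n = 2). With 5 counts equal to 17.8 CPM in the second OSC library at 1.5 mm, depth there limits who meets the rule.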
